A study of Mus musculus with 8 samples.

Results

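Genes of the piRNA pathway and of transposon silencing were examined in testis RNA of C57BL/6 mice given an antibody against PD-L1 or an isotype control. The 31 genes were chosen by symbol, as PIWI proteins, Tudor proteins, factors of piRNA processing and genes of germline DNA methylation, from a table of 57690 rows. Every symbol was found once, and 30 of the 31 averaged 1 TPM or more and were tested among 20343 genes. TPM is a transcript level corrected for gene length and library total, so levels of different genes can be set side by side, while the read depth is unknown.

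All mice were C57BL/6 and aged 8 weeks, and all libraries were made from testis collected 7 days after treatment. The IgG group held 4 libraries of mice given 2 intraperitoneal doses of 200 µg of an IgG2b isotype antibody. The anti-PD-L1 group held 4 libraries of mice given 2 doses of 200 µg of anti-PD-L1, which blocks a ligand that restrains T cells through PD-1. No label ties each library to its own animal, and the p-values therefore reflect only how much these libraries vary, which may be technical. IgG replicate 4 and anti-PD-L1 replicate 1 stood apart from the others: 31572 and 31322 genes had a value above 0 there, against 29064 to 29904 in the other 6 libraries. The markers used to check the tissue were present: summed levels ran from 58842 to 77151 TPM for elongating spermatids, from 1426 to 1689 TPM for spermatocytes and from 128 to 161 TPM for spermatogonia, and no marker of these lists was at 0 in all libraries.

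PIWI proteins bind piRNAs, small RNAs of the germline that guide them to transposon transcripts and to the loci that encode them. Precursor transcripts are brought to granules beside mitochondria, cut, trimmed and methylated at the 3′ end, with Tudor proteins as scaffolds that bind methylated arginines of the PIWI proteins. In fetal germ cells a nuclear branch directs DNA methylation of transposons, and in spermatocytes and spermatids a separate and much larger set of piRNAs is made. Mice that lack one of these genes are often sterile because spermatogenesis arrests.

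Promoters of 24 of the 31 genes were matched in RefSeq for GRCm38.p6, the assembly also called mm10. Of these 24, 8 had several listed starts, and only the first was searched. In the 250 bases before the first listed start, the E-box CACGTG, which reads the same on both strands, was present in 7 of the 24 (29.2%) and in 6.05% of 27025 promoters in the table. The 7 were Mael, Piwil1, Fkbp6, Tdrd9, Ddx4, Mov10l1 and Tdrd1. The letters GGCGGGA, of the kind bound by E2F factors, were present on either strand in 4 of 24 (16.7%) and in 9.76% of all promoters. The letters CAACNG or TAACNG, of the kind bound by MYB factors, were present on either strand in 7 of 24 (29.2%) and in 43.0% of all promoters. Median GC content was 63.4% in the windows of these genes and 52.0% in all windows, and a match describes letters only. The E-box promoters are shown because they share this motif, without Ddx4, whose E-box lay in an annotated exon. Each line is the longest stretch of the window outside annotated exons, 5′ to 3′ on the gene's strand, with these 3 kinds of match, on either strand, in capitals.

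Piwil1: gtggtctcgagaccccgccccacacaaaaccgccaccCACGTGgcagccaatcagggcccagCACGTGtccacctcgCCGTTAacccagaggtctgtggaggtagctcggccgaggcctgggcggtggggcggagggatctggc
Tdrd1: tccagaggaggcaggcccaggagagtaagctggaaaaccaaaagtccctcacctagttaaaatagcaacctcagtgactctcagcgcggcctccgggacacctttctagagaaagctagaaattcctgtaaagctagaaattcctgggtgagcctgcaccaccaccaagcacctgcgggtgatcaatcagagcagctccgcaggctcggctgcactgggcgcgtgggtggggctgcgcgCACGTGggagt
Tdrd9: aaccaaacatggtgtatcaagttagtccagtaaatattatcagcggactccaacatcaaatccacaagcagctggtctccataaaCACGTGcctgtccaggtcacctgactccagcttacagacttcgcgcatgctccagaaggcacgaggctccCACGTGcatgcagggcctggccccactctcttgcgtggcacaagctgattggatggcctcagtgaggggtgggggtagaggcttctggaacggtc
Mov10l1: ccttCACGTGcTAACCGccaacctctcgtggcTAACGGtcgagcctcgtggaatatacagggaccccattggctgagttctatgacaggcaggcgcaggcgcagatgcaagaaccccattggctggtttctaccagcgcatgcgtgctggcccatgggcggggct
Mael: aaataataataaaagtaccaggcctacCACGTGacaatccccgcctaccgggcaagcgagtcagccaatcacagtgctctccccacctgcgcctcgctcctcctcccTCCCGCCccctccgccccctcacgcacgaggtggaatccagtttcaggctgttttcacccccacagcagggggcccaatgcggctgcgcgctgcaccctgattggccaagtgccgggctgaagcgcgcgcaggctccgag
Fkbp6: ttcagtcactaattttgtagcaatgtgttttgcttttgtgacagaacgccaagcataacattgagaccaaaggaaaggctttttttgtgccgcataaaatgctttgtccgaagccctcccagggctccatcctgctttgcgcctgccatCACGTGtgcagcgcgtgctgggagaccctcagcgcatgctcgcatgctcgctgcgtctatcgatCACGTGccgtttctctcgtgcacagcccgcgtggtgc

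In mm10 these stretches were chr5:128736030-128736173 on the plus strand for Piwil1, chr19:56825959-56826208 on the plus strand for Tdrd1 and chr12:111971309-111971558 on the plus strand for Tdrd9. They were chr15:88982744-88982908 on the plus strand for Mov10l1, chr1:166238748-166238994 on the minus strand for Mael and chr5:135350045-135350294 on the minus strand for Fkbp6. The Piwil1 stretch lay inside the annotated span of that gene, 128702524 to 128755474. Piwil1, Tdrd9 and Fkbp6 each held 2 E-boxes in these stretches, and Tdrd1, Mov10l1 and Mael held 1. In Tdrd1 the E-box began 11 bases before the start, and in Mov10l1 it began 246 bases before it. Beside the E-boxes, Piwil1 held 1 and Mov10l1 held 2 MYB-type matches, and Mael held 1 match to GGCGGGA.

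The comparison asks whether PD-L1 blockade changed the transcripts of this pathway in the testis. Levels were close between the groups. Of the 30 tested genes 24 had a higher and 6 a lower mean log2(TPM + 1) after anti-PD-L1, which is 80% where 58.3% of all genes tested were higher. The median difference was 0.09 on the log2 scale, beside 0.03 over all genes tested. No member passed a Benjamini-Hochberg adjusted p of 0.05 in limma, and neither did any other gene (0% of 20343). The smallest adjusted p of a member was 0.657, for Rnf17, in limma with Benjamini-Hochberg adjustment. At an unadjusted p under 0.05 there were 2 members, Rnf17 and Ddx4, both higher, which is 6.67% of the 30 beside 5.23% of all genes (3.0% higher and 2.22% lower). The groups did not overlap for 1 member, Rnf17, which is 3.33% beside 2.99% of all genes (1.76% higher and 1.23% lower). Both shares lay near the background.

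The library left out moved these counts and the median. Without IgG replicate 1 the median of the members was 0.04 (0.005 over all genes) and 19 of 30 were higher, beside 51.7% of all genes. The members under an unadjusted p of 0.05 numbered 5 without IgG replicate 4 (16.7%, beside 9.15% of all genes), 3 without anti-PD-L1 replicate 1 (10%, beside 6.02%), and 1 without any one of the remaining 6 libraries (3.33%, beside 3.80% to 5.10%). The members without overlap numbered 5 without IgG replicate 4 (16.7%, beside 11% of all genes), 2 without anti-PD-L1 replicate 1 or 3 (6.67%, beside 6.68% and 5.71%), and 3 without anti-PD-L1 replicate 2 (10%, beside 4.85%). Without both libraries that stood apart, 6 members were under an unadjusted p of 0.05, which is 20% beside 9.88% of all genes: Rnf17, Ddx4, Asz1, Tex15, Dnmt3a and Tex19.1. In that comparison of 3 libraries with 3, the groups did not overlap for 7 members (23.3%, beside 16.1% of all genes), and none had an adjusted p under 0.05 in limma with Benjamini-Hochberg adjustment, the smallest being 0.305.

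Bulk RNA does not separate fewer cells of a type from less RNA per cell. Among markers of the cells that express this pathway, 8 of 9 spermatocyte markers were higher after anti-PD-L1, where 58.3% of all genes tested were higher. Their summed levels ran from 1449 to 1547 TPM in IgG libraries and from 1426 to 1689 TPM in anti-PD-L1 libraries. The 9 include Mybl1, which is also counted among the piRNA partners below. Of 10 elongating spermatid markers 9 were lower, with sums from 61552 to 77151 TPM and from 58842 to 66935 TPM. Spermatogonia markers were higher for 6 of 9, with sums from 134 to 161 TPM and from 128 to 160.0 TPM. Of 10 round spermatid markers 7 were higher, with sums from 1858 to 1999.8 TPM and from 1865 to 2144 TPM. Among the somatic cells, Sertoli cell sums overlapped, at 354 to 462 TPM in IgG libraries and 338 to 482 TPM in anti-PD-L1 libraries. So did macrophage sums (72.8 to 91.35 and 79.4 to 103 TPM) and T cell sums (4.38 to 5.12 and 3.62 to 5.70 TPM). Leydig cell sums did not overlap, at 1273 to 1657 TPM in IgG libraries and 2253 to 3529 TPM in anti-PD-L1 libraries. Even so, 5 of 10 Leydig cell markers were higher and 5 lower. Adipocyte markers were lower for 6 of 6, with sums from 10.5 to 101 TPM and from 7.52 to 13.8 TPM. The part of these shifts in the values of the pathway genes was not tested.

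**Figure D1:**
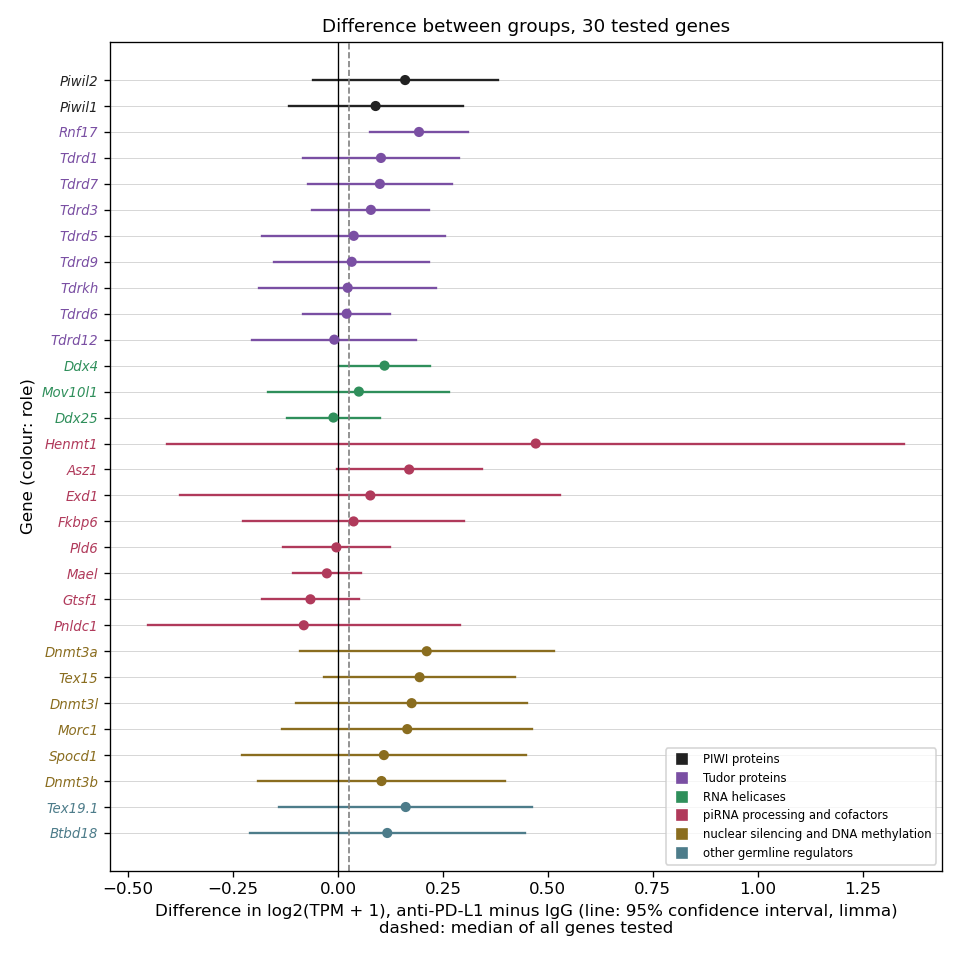
Difference in log2(TPM + 1) between anti-PD-L1 and IgG libraries (x axis) for the 30 tested genes (y axis, coloured by role), with points for the estimate and lines for the 95% confidence interval from limma; the dashed line is the median of all genes tested, 0.03. Most points lie between 0 and 0.25, nearly all intervals cross 0, and Henmt1 has the widest interval, from -0.41 to 1.35.

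Among the PIWI proteins, the effectors that carry piRNAs, both adult members were abundant and the fetal member was near the floor of the table. Piwil1 encodes MIWI, the PIWI protein of pachytene spermatocytes and round spermatids. It was at 154, 198, 178 and 194 TPM in IgG replicates 1 to 4 and at 192, 201, 169.5 and 207 TPM in anti-PD-L1 replicates 1 to 4. The groups overlapped, IgG replicate 1 was the lowest and anti-PD-L1 replicate 4 the highest, and the log2 difference was 0.09 (SE 0.09). Piwil2 encodes MILI, which works from fetal germ cells to spermatids. It was at 62.7, 77.5, 69.4 and 75.65 TPM in IgG libraries and at 71.9, 82.5, 73.1 and 92.2 TPM in anti-PD-L1 libraries. Its groups overlapped as well, with the same lowest and highest library, and the log2 difference was 0.16 (SE 0.10). Piwil4 encodes MIWI2, the nuclear PIWI protein of fetal germ cells that directs DNA methylation. It was at 0.18 to 0.35 TPM in IgG libraries and at 0.13 to 0.54 TPM in anti-PD-L1 libraries, below the filter, and was not tested. Neither Piwil1 nor Piwil2 passed, with an adjusted p of 0.999 for both in limma with Benjamini-Hochberg adjustment.

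Tudor proteins dock methylated PIWI proteins and build the germ granules. Of the 9 here, 8 had a higher (88.9%) and 1 a lower mean after anti-PD-L1, with a median difference of 0.04. Over all genes tested 58.3% were higher, with a median of 0.03. Rnf17, also called Tdrd4, encodes a Tudor and RING domain protein that restrains piRNA amplification in meiotic cells (mm10 chromosome 14, 56402581 to 56525032). It was at 119, 112, 116 and 125 TPM in IgG libraries and at 129, 141, 139 and 133 TPM in anti-PD-L1 libraries. Every anti-PD-L1 library was above every IgG library. The means were 118 ± 5.43 and 135 ± 5.69 TPM (SD, n = 4), a 14.4% higher mean and a log2 difference of 0.19 (95% confidence interval 0.08 to 0.31). The unadjusted p in limma was 0.00475 and the gene did not pass over all genes, at an adjusted p of 0.657 (limma, Benjamini-Hochberg). Its difference ranged from 0.16 to 0.24 over the 16 alternatives, and its groups overlapped with TMM rescaling.

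Tdrd6, a scaffold of the chromatoid body of spermatids, was the most abundant Tudor gene. It was at 299.8, 331, 333 and 333 TPM in IgG libraries and at 337, 323, 327 and 328 TPM in anti-PD-L1 libraries. IgG replicate 1 lay below the other 7 libraries, which spanned 323 to 337 TPM, and the log2 difference was 0.02 (SE 0.05), or -0.01 with TMM rescaling. Next in level came Tdrd7, also of the chromatoid body, at means of 159 and 171 TPM, then Rnf17, then Tdrd1, a partner of MILI, at 64.2 and 68.9 TPM. Their ranges in the 8 libraries, 148 to 183 TPM for Tdrd7, 112 to 141 TPM for Rnf17 and 58.9 to 73.5 TPM for Tdrd1, did not overlap one another. Tdrd9, which is also an RNA helicase, and Tdrd5, a factor of pachytene piRNA processing, could not be ordered: their ranges were 45.6 to 58.4 TPM and 44.8 to 58.1 TPM. The lowest levels were those of Tdrkh, the mitochondrial partner of the trimming enzyme, of Tdrd12, a factor of fetal piRNA amplification, and of Tdrd3, a Tudor protein of general RNA metabolism, at 33.1, 32.0 and 24.5 TPM over all libraries. The differences of Tdrd7 and Tdrd1 were 0.10 and 0.10, and those of the other 6 Tudor genes ran from -0.009 for Tdrd12 to 0.08 for Tdrd3. Tdrkh shares 2255 bases of exon on the opposite strand with Oaz3, a spermatid gene at a mean of 1878 TPM, and the strand setting of the counting is not given in the sources used here, so the level of Tdrkh is uncertain. Tdrd5 shares 176 bases with an antisense gene, 4930518J20Rik, at 46.8 TPM.

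**Figure D2:**
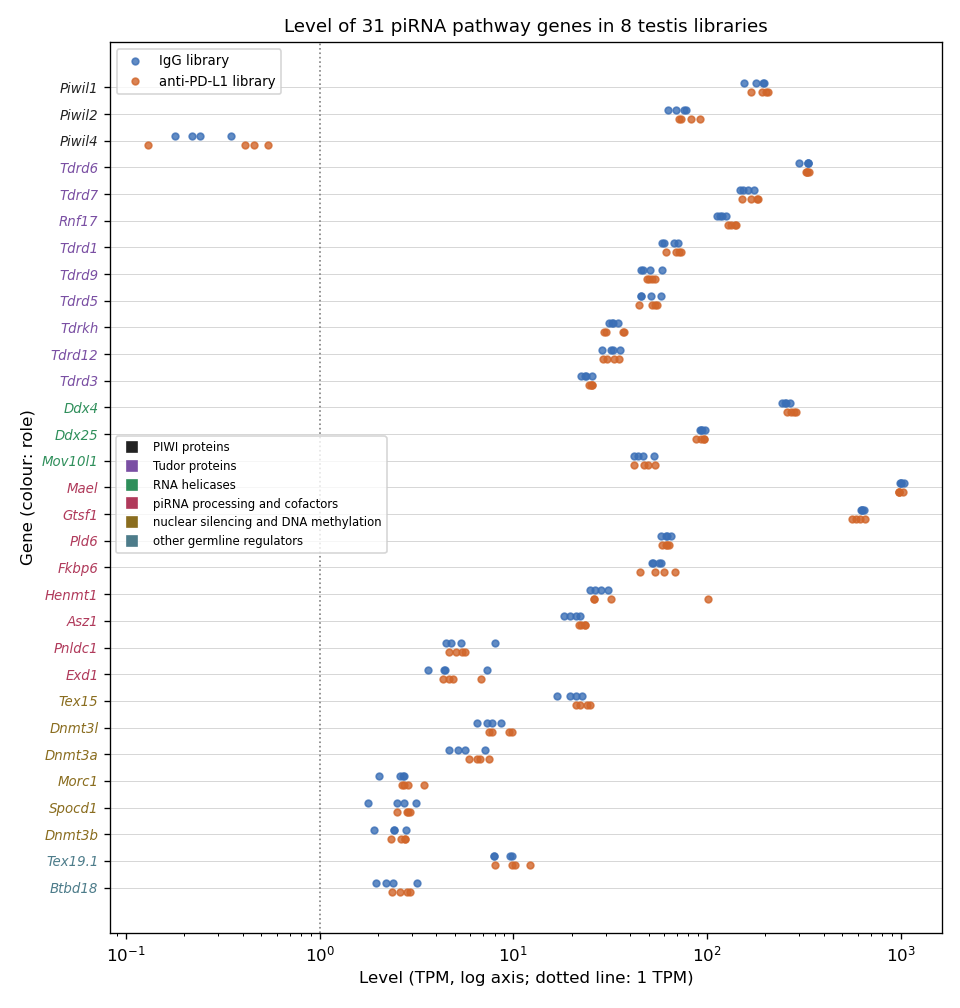
Level in TPM (x axis, log scale) of the 31 genes (y axis, grouped and coloured by role) in each of the 4 IgG libraries (blue) and 4 anti-PD-L1 libraries (orange). The genes span 0.13 TPM for Piwil4 to 1042 TPM for Mael, and the groups lie on top of each other for most genes, with anti-PD-L1 replicate 1 of Henmt1 alone at 101 TPM.

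Ddx4, the germ cell marker VASA, encodes a DEAD-box helicase of the germ granules, and it was the most abundant helicase (mm10 chromosome 13, 112598333 to 112652475). It was at 253, 254, 245 and 267 TPM in IgG libraries and at 260.1, 269.9, 283 and 289 TPM in anti-PD-L1 libraries. Of the anti-PD-L1 libraries 3 were above all IgG libraries, and replicate 1 was below IgG replicate 4. The means were 255 ± 9.01 and 275 ± 12.9 TPM (SD, n = 4), and the log2 difference was 0.11 (95% confidence interval 0.002 to 0.22). The unadjusted p in limma was 0.0462 and the adjusted p was 0.940 (limma, Benjamini-Hochberg). Over the 16 alternatives the difference of Ddx4 ranged from 0.08 to 0.16. Its unadjusted p in limma was under 0.05 in 7 of the 16, and it was 0.223 with TMM rescaling. Mov10l1, the helicase that binds piRNA precursors, was at means of 46.4 and 48.0 TPM, a log2 difference of 0.05 (SE 0.09). Ddx25, a helicase of spermatids, was at 94.1 and 93.4 TPM, a difference of -0.01 (SE 0.05).

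Of the 8 genes of piRNA processing and its cofactors, 4 had a higher (50%) and 4 a lower mean, with a median difference of 0.02. Over all genes tested 58.3% were higher, with a median of 0.03. Mael, whose protein acts in piRNA biogenesis and transposon silencing, was the most abundant of all 31 genes and above 99.5% of the genes tested (mm10 chromosome 1, 166201201 to 166238747). It was at 1042, 1008, 999 and 988 TPM in IgG libraries and at 979, 978, 1028 and 978 TPM in anti-PD-L1 libraries. Anti-PD-L1 replicates 1, 2 and 4 were below all IgG libraries and replicate 3 was among them. The log2 difference was -0.03 (95% confidence interval -0.11 to 0.05, the narrowest of the 30), and it was 0.007 after quantile normalization. Gtsf1, a cofactor that speeds target cutting by PIWI proteins, followed at 633 ± 10.7 and 606 ± 40.4 TPM (SD, n = 4), a log2 difference of -0.07 (SE 0.05).

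Asz1, also called GASZ, encodes the mitochondrial scaffold of the granules where piRNAs are processed, and it had the smallest unadjusted p of the processing genes, 0.0535 in limma (mm10 chromosome 6, 18050964 to 18109061). It was at 21.1, 19.5, 18.2 and 22.0 TPM in IgG libraries and at 23.5, 21.7, 22.4 and 23.55 TPM in anti-PD-L1 libraries. Only anti-PD-L1 replicate 2 fell within the IgG range. The means were 20.2 ± 1.71 and 22.8 ± 0.907 TPM (SD, n = 4), and the log2 difference was 0.17 (95% confidence interval -0.003 to 0.34). Pld6, the nuclease that cuts precursors at the mitochondrial surface, was at 61.6 and 61.4 TPM, a difference of -0.004 (SE 0.06), and Fkbp6, a co-chaperone of piRNA loading, at 54.9 and 56.9 TPM, a difference of 0.04 (SE 0.12). Pnldc1, the enzyme that trims piRNA 3′ ends, and Exd1, a partner of Tdrd12, were far lower in level, at means of 5.43 and 5.06 TPM over all libraries. Both were highest in IgG replicate 4, at 8.03 and 7.30 TPM, and Exd1 was second highest in anti-PD-L1 replicate 1, at 6.81 TPM. Pnldc1 differed by -0.08 and Exd1 by 0.08, and without IgG replicate 4 these were 0.07 and 0.25.

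Henmt1 encodes the methyltransferase that protects the 3′ ends of piRNAs, and it is described here because of 1 library, chosen after its values were seen (mm10 chromosome 3, 108939873 to 108960774). It was at 24.8, 30.9, 26.5 and 28.5 TPM in IgG libraries and at 101, 26.01, 31.9 and 26.1 TPM in anti-PD-L1 libraries. Anti-PD-L1 replicate 1 was more than 3 times as high as any other library, and the remaining 7 overlapped. The log2 difference was 0.47 (95% confidence interval -0.41 to 1.35), and it was 0.016 without that library. The neighbouring genes Prpf38b and Fam102b were at 43.0 and 1.41 TPM in that library and at 23.3 to 42.2 TPM and 0.72 to 1.28 TPM in the other 7. Gm9857, which shares 392 bases of exon with Henmt1 on the opposite strand, was listed at 0 there, in replicate 1 of the IgG group and in anti-PD-L1 replicate 2, and at 0.9 to 2.7 TPM in the other 5 libraries.

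**Figure D3:**
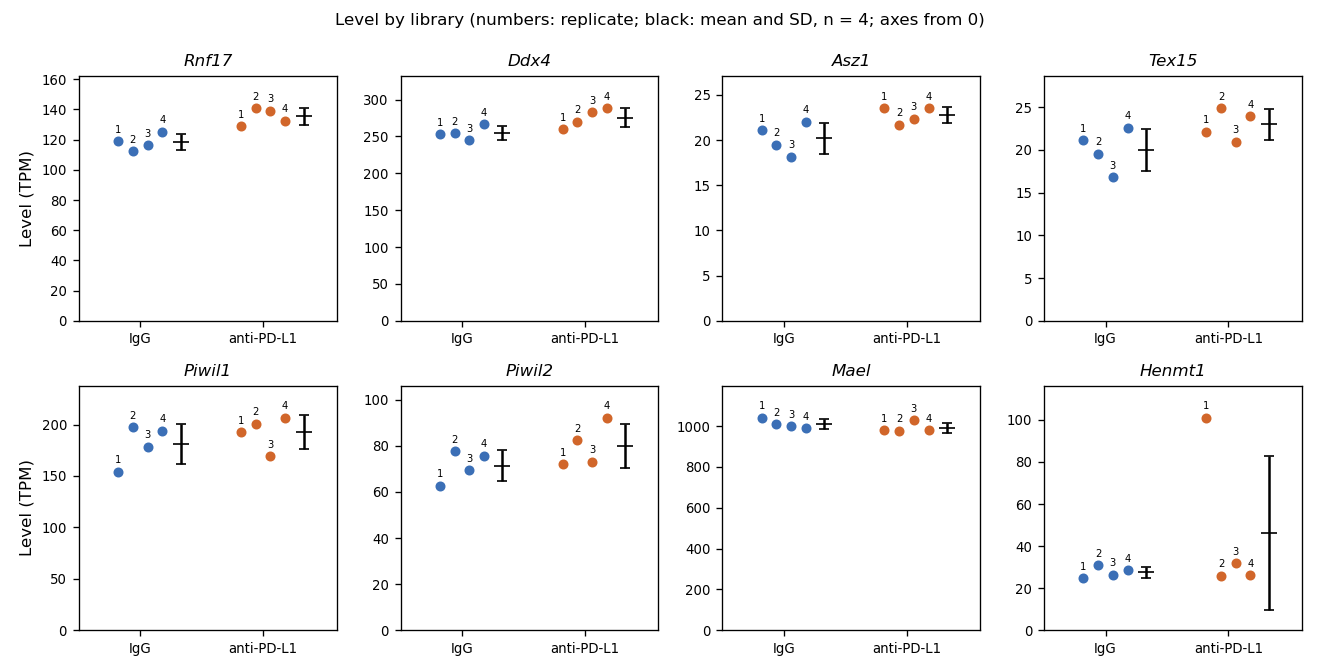
Level in TPM (y axis, from 0) of 8 genes in each library, with IgG libraries in blue and anti-PD-L1 libraries in orange, numbered by replicate, and the mean ± SD of each group in black (n = 4). The groups are separate only for Rnf17, the Mael values lie within 978 to 1042 TPM, and the Henmt1 mean of the anti-PD-L1 group is carried by replicate 1.

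All 6 genes of nuclear silencing and DNA methylation had a higher mean after anti-PD-L1, where 58.3% of all genes tested were higher. Their median difference was 0.17, beside 0.03 over all genes, and none of the 6 passed. Tex15, a partner of MIWI2 in directing DNA methylation to transposons, was the most abundant of them and had the smallest unadjusted p, 0.0844 in limma. It was at 21.1, 19.55, 16.8 and 22.6 TPM in IgG libraries and at 22.1, 24.9, 20.95 and 23.9 TPM in anti-PD-L1 libraries. IgG replicate 3 was the lowest and the groups overlapped. The log2 difference was 0.19 (95% confidence interval -0.03 to 0.42).

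The DNA methyltransferases were low in level. Dnmt3l, the catalytically inactive cofactor of germline methylation, was at 6.47 to 8.59 TPM in IgG libraries and at 7.51 to 9.86 TPM in anti-PD-L1 libraries. Dnmt3a, a de novo methyltransferase, ran from 4.68 to 7.17 TPM and from 5.92 to 7.49 TPM, and its relative Dnmt3b from 1.91 to 2.80 TPM and from 2.34 to 2.77 TPM. Their log2 differences were 0.18 (SE 0.12), 0.21 (SE 0.13) and 0.10 (SE 0.13), and all 3 ranges overlapped. Spocd1, another partner of MIWI2, and Morc1, an ATPase of transposon silencing, were at means of 2.66 and 2.72 TPM over all libraries and differed by 0.11 (SE 0.15) and 0.16 (SE 0.13). IgG replicate 1 was the lowest library for Dnmt3a, Dnmt3b, Spocd1 and Morc1, and without it the differences of the 4 were 0.139, 0.033, -0.002 and 0.095.

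Tex19.1, which restrains retrotransposons in germ cells, was the higher in level of the remaining pair of regulators. It was at 7.93, 9.56, 7.94 and 9.89 TPM in IgG libraries and at 8.00, 10.2, 9.80 and 12.15 TPM in anti-PD-L1 libraries. Anti-PD-L1 replicate 4 was the highest, the groups overlapped, and the log2 difference was 0.16 (SE 0.13). Btbd18, a nuclear factor for transcription of pachytene piRNA loci, was at 1.95 to 3.17 TPM in IgG libraries and at 2.37 to 2.93 TPM in anti-PD-L1 libraries, a difference of 0.12 (SE 0.14).

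IgG replicate 1 was the lowest of the 8 libraries for 17 of 30 genes, among them Piwil1, Piwil2, Tdrd1, Tdrd6, Tdrd7, Mov10l1 and Henmt1, and the highest for Mael. Its median deviation from the mean of each gene was -0.15 on the log2 scale, beside -0.07 over all genes tested. Anti-PD-L1 replicate 4 was the highest for 9 genes, among them Piwil1, Piwil2, Ddx4 and Asz1, and the lowest for none, with a median deviation of 0.09 beside 0.02. IgG replicate 4 was the highest for 8 genes, among them Tdrd5, Tdrd9, Pnldc1 and Exd1, with a median deviation of 0.05 beside 0.08. Anti-PD-L1 replicate 3 was the highest for Dnmt3l alone and had a median deviation of -0.02, below the 0.009 of IgG replicate 2. IgG replicate 1 was also the library with the most adipocyte marker RNA, a sum of 101 TPM where the other 7 ranged from 7.52 to 34.8 TPM, and the part of this in the lower values was not tested. The 95% confidence interval of the difference in log2(TPM + 1) lay within 0.5 of 0 for 27 of the 30 genes, the exceptions being Henmt1, Exd1 and Dnmt3a. Over all genes tested this held for 12901 of 20343. This scale understates changes of low genes, such as Dnmt3b, Spocd1, Btbd18 and Morc1.

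**Figure D4:**
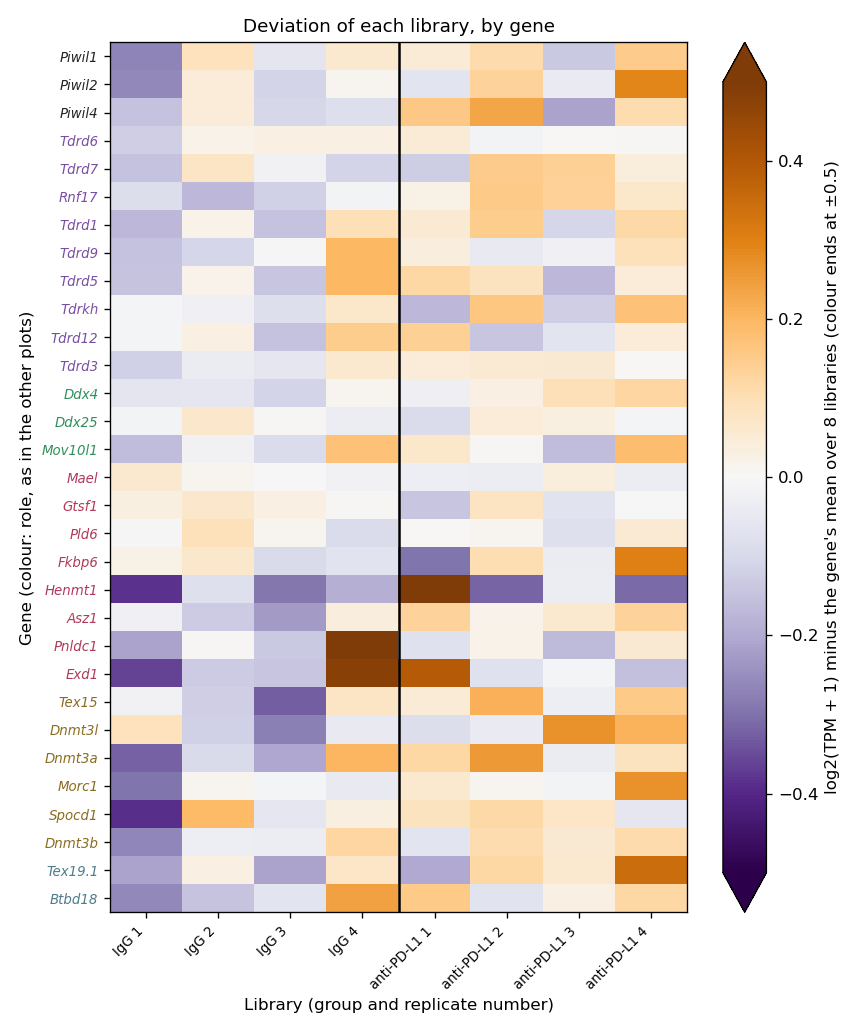
Deviation of log2(TPM + 1) from the mean of each gene over the 8 libraries (colour, ending at ±0.5), with libraries in columns, IgG left of the black line, and the 31 genes in rows grouped by role. The column of IgG replicate 1 is mostly purple (lowest for 17 of 30 tested genes), and the darkest cells above the mean are Henmt1 in anti-PD-L1 replicate 1 and Pnldc1 and Exd1 in IgG replicate 4.

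Other genes around the pathway were set beside all genes tested, of which 58.3% were higher, with a median difference of 0.03. Of 21 listed piRNA partners and other small RNA factors, 19 were in the table and 17 were tested. Their median difference was 0.07, and 0.05 with TMM rescaling. Of the 17, 12 had a higher (70.6%) and 5 a lower mean. None passed, and 1 (5.88%, beside 5.23% of all genes) was under an unadjusted p of 0.05. That gene was Mybl1, or A-MYB, the transcription factor that drives pachytene piRNA loci. It was at 18.4, 19.3, 19.85 and 21.3 TPM in IgG libraries and at 22.7, 22.0, 21.1 and 23.3 TPM in anti-PD-L1 libraries, and the groups overlapped because IgG replicate 4 was above replicate 3 of the treated group. Its log2 difference was 0.17 (SE 0.07) with an adjusted p of 0.918 in limma with Benjamini-Hochberg adjustment. The count for this list was 2 when IgG replicate 4 or replicate 3 of the anti-PD-L1 group was left out (9.15% and 5.10% of all genes). That count was 0 when IgG replicate 2 or 3 or anti-PD-L1 replicate 2 or 4 was left out (3.80% to 4.46% of all genes). Meioc, a factor of meiotic prophase, was at 54.9 ± 4.02 and 62.5 ± 6.87 TPM (SD, n = 4), a difference of 0.18 (SE 0.09).

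Of 22 genes of chromatin silencing found in the table, counting older and newer symbols of a gene once, 21 were tested. Their median difference was 0.04, and 0.008 with TMM rescaling. Of the 21, 15 had a higher (71.4%) and 6 a lower mean, where 58.3% of all genes tested were higher. None passed and 0 were under an unadjusted p of 0.05 in limma, beside 5.23% of all genes. The second count was 2 without IgG replicate 4 (9.15% of all genes) and 1 without replicate 3 of the anti-PD-L1 group (5.10% of all genes). The smallest p belonged to Pcgf6 and Mga, subunits of a Polycomb complex that silences germline genes outside the germline. Pcgf6 was at 34.6 ± 2.91 and 38.2 ± 3.60 TPM and Mga at 15.8 ± 1.43 and 18.6 ± 3.70 TPM (SD, n = 4), with log2 differences of 0.14 (SE 0.08) and 0.21 (SE 0.14).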

How the data were processed

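Testis RNA of 4 IgG and 4 anti-PD-L1 libraries was compared, grouped by title. TRIzol RNA went into TruSeq libraries, per the labels. Values were deposited as TPM for each gene and library, and each library sums to about 1000000, so depth is unknown. CASAVA 1.8, HISAT2, StringTie, RSEM and mm10 are named in the submitters' processing notes, without role or order. The annotation release and strand setting were not given in the sources used here. The authors' group means and gene length were not used.

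Values were transformed to log2(TPM + 1), which understates changes of low genes, and 20343 genes averaging 1 TPM or more were fitted with limma 3.58.1 (R 4.3.3, intensity trend, group term), with Benjamini-Hochberg adjustment at 0.05 over all of them. Gene coordinates and exon overlaps are from GENCODE M21; promoter sequences are from RefSeq (GRCm38.p6). At 95% identity over at least 200 bases, the longest annotated transcripts of the 31 genes matched another gene only for Tdrkh (Oaz3) and Henmt1 (Gm9857), both overlapping neighbours (BLAST 2.17.0). The fit was tested on simulated data whose changes were larger than the difference of any member, so recovery of smaller differences was not tested.

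The genes and lists were chosen with earlier results of these data known. Each PIWI gene, the most abundant gene and the gene with the smallest p of each role, and genes with an unadjusted p under 0.05 or without overlap are given by library; of each other list, the 2 genes with the smallest p are named. Alternatives were other pseudocounts and filters, TMM and quantile scaling, array weights, a replicate block and libraries left out.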

Additional observations from a re-analysis of the deposited data

Results flagged for a closer look

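In 3 of 62 gene and group combinations of the 31 genes, 1 of the 4 libraries lay far from the others, its gap to the nearest of them being a share of the range above Dixon's 95% critical value for 4 samples. Chance flags about 1 in 20 such groups. Henmt1 was at 101.1 TPM in anti-PD-L1 replicate 1 and at 26.01 to 31.9 TPM in the other anti-PD-L1 libraries. Counted over all 20343 genes tested, that library was at least 3 times above the next highest (with at least 10 TPM, and at least 1 TPM in the next) for 24 genes, where the other 7 libraries were so for 1 to 14 genes. Tdrd6 was at 299.8 TPM in IgG replicate 1 and at 331 to 333 TPM in the other IgG libraries. Mael was at 1028 TPM in anti-PD-L1 replicate 3 and at 978 to 979 TPM in the other anti-PD-L1 libraries. That gap is small beside the level, and it stands out because the other 3 libraries lay close together.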

How the results depend on the processing

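Of 30 tested genes 13 changed direction in at least 1 of 16 alternatives and 17 in none that gave them a value. The 5 TPM filter left out Dnmt3b, Spocd1, Btbd18 and Morc1. No member had an adjusted p under 0.05 in any alternative (limma, Benjamini-Hochberg). Over all genes the count past the threshold was 0, and it was 1 with a pseudocount of 0.1, 5 with array quality weights, 0 to 15 with a library left out, 8 without the 2 libraries that stood apart (IgG 4 and anti-PD-L1 1), and 0 under the others. Members under an unadjusted p of 0.05 numbered 2, and 3 with no filter on low values (9.68%, beside 4.05% of all genes). They numbered 1 with a filter of 5 TPM, TMM rescaling or quantile normalization (6.00%, 4.97% and 5.51% of all genes). The count was 5 with array quality weights (16.7%, beside 10.6% of all genes), 1 to 5 with a library left out, and 6 without both of those libraries. Members without overlap numbered 1, and 0 with TMM rescaling, 1 to 5 with a library left out and 7 without both. Of the piRNA partners 1 was under an unadjusted p of 0.05, and 0 after quantile normalization, 4 with array quality weights, 0 to 2 with a library left out and 4 without both. Of the chromatin genes 0 were, and 0 to 2 with a library left out and 1 without both. Beside the counts at an unadjusted p under 0.05, the share of all genes was 5.23%. That share was 5.51% after quantile normalization and 10.6% with array quality weights. It was 3.80% to 9.15% with a library left out and 9.88% without both. The members' median ranged from 0.04 to 0.13. The share of all genes that were higher, 58.3%, was 49.8% with TMM rescaling and 50.7% after quantile normalization. Of the 30 members 22 were higher in both. The members' median was 0.06 and 0.09 there, beside -0.0005 and 0.002 over all genes.

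Direction changed only for genes with log2 differences from -0.08 (Pnldc1) to 0.11 (Spocd1). After quantile normalization Mael differed by 0.007, Tdrd5 by -0.002, Tdrd9 by -0.007 and Tdrkh by -0.02. With TMM rescaling Tdrd6 differed by -0.01 and Tdrkh by -0.006, and with array quality weights Pnldc1 by 0.017. Without both libraries Ddx25 differed by 0.005, Pnldc1 by 0.084 and Pld6, lower as before, by -0.037. With 1 library left out, Ddx25 ranged from -0.028 to 0.018, Exd1 from -0.041 to 0.25, Fkbp6 from -0.057 to 0.141, Mov10l1 from -0.004 to 0.115 and Pld6 from -0.035 to 0.026. Pnldc1 ranged from -0.167 to 0.073, Spocd1 from -0.002 to 0.192, Tdrd12 from -0.06 to 0.038, Tdrd5 from -0.005 to 0.11, Tdrd6 from -0.017 to 0.034, Tdrd9 from -0.012 to 0.104 and Tdrkh from -0.032 to 0.083. The cause of these changes was not tested.

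With the replicate number as a block 3 members (10%, beside 5.24% of all genes) were under an unadjusted p of 0.05, Piwil2 being added, and 0 had an adjusted p under 0.05. Deviations of libraries with the same number correlated across genes at -0.11, 0.10, 0.09 and -0.20. The largest value was 0.36, between IgG replicate 4 and anti-PD-L1 replicate 1. The numbers thus gave no sign of pairing, but low correlations cannot exclude pairing with a small effect. Without depth, counting error cannot be given, and genes near 1 TPM are the least certain.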
